A study of Glycine max with 3 samples.

Results

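The degradome of vegetable soybean leaves was examined for messenger RNAs that may be cut under the guidance of microRNA (miRNA) families outside the best-described ones. A list of family numbers, of families well described in plants or in legumes, was left out, which removed 32 of the 54 families in the target table. The 22 families kept had 100 pairs of a miRNA and a transcript, on 84 transcripts of 46 gene loci. Counted once per family and locus these were 46 of the 284 targets in the table. The rule used only family numbers. It also took in miR394, miR395, miR399 and miR530, which are conserved among flowering plants and are not little studied; they had 18 of the 46 loci, and the 18 other families had 28.

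The leaves came from a vegetable soybean, Glycine max cultivar Taiwan 75, whose seeds are eaten before they ripen. The chilled small RNA library came from plants moved to 4 °C for 24 h at the stage of 1 true leaf, and the control library from plants left under growth conditions of 25 °C in the day and 17 °C at night. For all 3 samples 12 h of light at 600 µmol/m²/s is given. For each condition leaf samples of 3 replicates went into 1 library. The degradome was 1 library of chilled and control leaves mixed; its label names leaf but a stage of 10 days after pollination, a difference that could not be settled. The degradome therefore carries no contrast between conditions, and no test could be made over samples. The profile summed to 5347700 reads in the chilled table and 3856902 reads in the control table over 381 distinct mature sequences, and these totals are not the sequencing depth, since only reads assigned to miRNAs are tabulated.

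A plant miRNA guides an Argonaute protein to a messenger RNA with which it pairs along most of its length. The messenger is cut opposite the middle of the miRNA, and the 3′ piece that remains carries a new 5′ end at a fixed position, which degradome sequencing reads. Conserved plant miRNAs often act on regulators of development or of mineral supply, whereas young families, found in 1 plant group, often have few or no settled targets. A hairpin can yield sequences from both of its arms. In the authors' naming, p3 or p5 at the end of a name gives the arm. Both arms of a hairpin can carry such names, as with MIR1536-p3 and MIR1536-p5, so the name alone marks no opposite arm.

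The sequences below belong to the miRNAs on which the results turn, written 5′ to 3′ with T for U, and with bases 2 to 8, the seed, in capitals. The strongest cut-site evidence was listed for miR5786 and for MIR5038a-p5. MIR5038a-p5 overlaps in sequence with miR5038a of the same hairpin, so both come from the same arm.
miR5786: tGTCGCAGgatagagggcactg
MIR5038a-p5: tTCTTGAGaatttggcctctg
The conserved families miR394, miR395 and miR399 were represented by sequences with known targets in the table.
miR394a-5p: tTGGCATTctgtccacctcc
miR395a: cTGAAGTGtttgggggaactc
miR395d: tGAAGTGTttgggggaac
miR395i: tGAAGTGTttgggggaactct
miR399a: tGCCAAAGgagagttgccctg
miR399d: tGCCAAAGgagatttgcccag
The last set differed between the libraries or was the most abundant.
miR4411: tTATTGTAactaatttgtcggt
MIR5667-p5: aATCCATTcagatctgtttcg
miR5770a: tAGGACTAtggtttggacgag

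The 28 miRNA names in these pairs stood for 26 distinct sequences, of which 18 were 21 nt long, 5 were 22 nt, 2 were 20 nt and 1 was 18 nt. A T, which is U in the RNA, began 15 of them. They had 24 distinct seeds: miR395d and miR395i shared theirs, and so did miR399a and miR399d, so the families had no seed in common with each other. Names ending in p3 or p5 belonged to 12 of the 26 sequences (46.2%), against 17 of the 63 sequences (27.0%) of all other families in the table. In 11 of the 22 families every pair was listed for a sequence with such a name, against 3 of the 32 other families. No test of these shares was made, since 1 library stands behind all of them.

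The cut-site evidence of the 46 loci was thin beside the rest of the table. Each pair carries a category, in which target callers usually give 0 to the one position with the most tags on its transcript, 1 to a position that ties for the most, 2 to a site above the usual level, 3 to a lower one and 4 to a single tag. The best pair of a locus was in category 0 or 1 for 3 of 46 loci (6.52%), against 78 of 238 loci of the other families (32.8%) and 28.5% over the whole table. The authors' p-value was under 0.05 for 2 loci (4.35%), against 56 of 238 (23.5%) and 20.4% over the whole table. Category 2 held 29 of the 46 loci (63.0%), against 84 of the other loci (35.3%), and category 4 held 11 (23.9%), against 68 (28.6%). At least 1 locus in category 0 or 1 was found in 3 of the 22 families and in 19 of the 32 others. These shares describe 1 library and were not tested; paralogs can share tags, and loci of a family share a miRNA.

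The miRNAs also paired less closely by the deposited alignment score, which runs from 0 to 4 in steps of 0.5 and by convention is lower for a closer match. The median was 3.5 over the 46 loci and 3.0 over the other 238. A score of 3.5 or 4 was held by 33 loci (71.7%), against 105 of the other loci (44.1%). Outside the conserved families 24 of 28 loci had such a score. These scores belong to the best pair of a locus by category, and a closer pair can exist. By the closest pair of each locus, 8 of the 46 loci (17.4%) had a score of 2 or less, against 79 of the other loci (33.2%). The abundance at the cut site, given as TPB, a normalised unit the authors did not spell out, had a median of 61.1 over the 46 loci, with a range of 8.14 to 7978, and of 97.7 over the other loci, with a range of 8.14 to 21899.

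**Figure D1:**
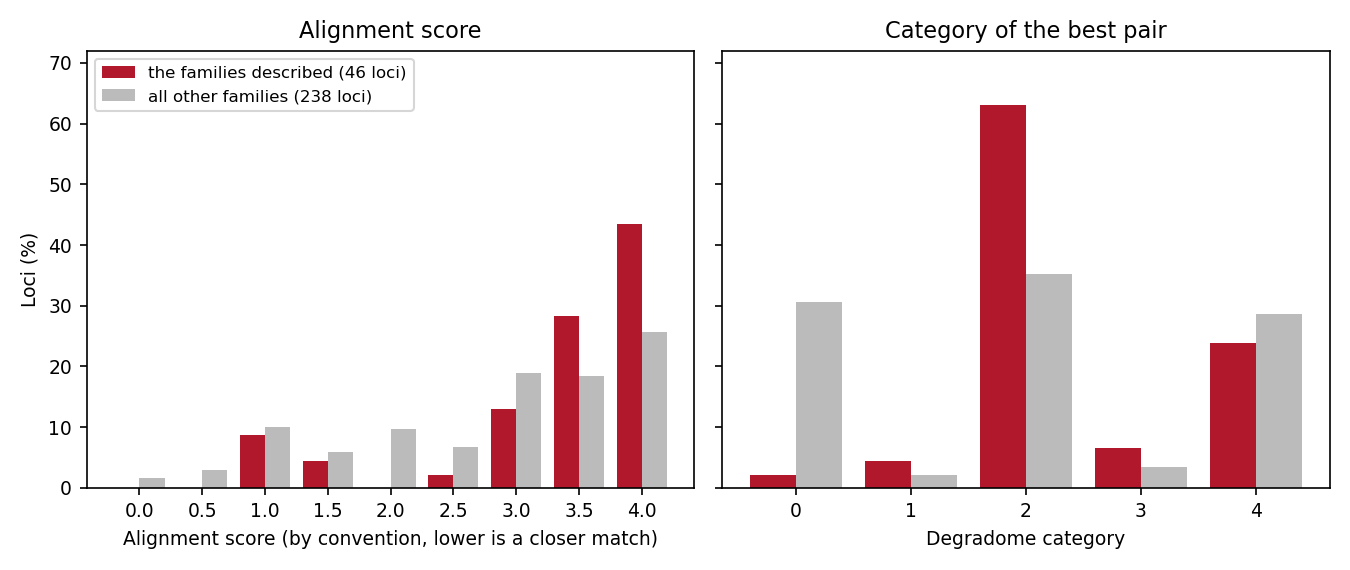
Share of target loci at each alignment score (left) and in each degradome category (right), for the 22 families described (red, 46 loci) and all other families of the table (grey, 238 loci); both panels share the vertical axis in percent. Score and category are those of the best pair of a locus by category. Scores of 3.5 and 4 hold 71.7% of the red loci and 44.1% of the grey ones, and category 0 holds 2.17% and 30.7%.

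The step of the TPB scale sets how these values can be read. None of the 265 category 4 pairs in the whole table exceeded 81.4 TPB, and the 24 such pairs described here ran from 8.14 to 81.4 TPB. If 81.4 TPB stands for 1 tag, values below it are parts of a tag that was divided over transcripts; the table does not spell this out. Under 100 TPB lay 31 of the 46 loci, and 3 reached 1000 TPB. A set of 23 loci had the same miRNA, annotation, score and TPB as another locus, mostly gene copies, so the 46 loci gave 33 distinct sets of values.

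**Figure D2:**
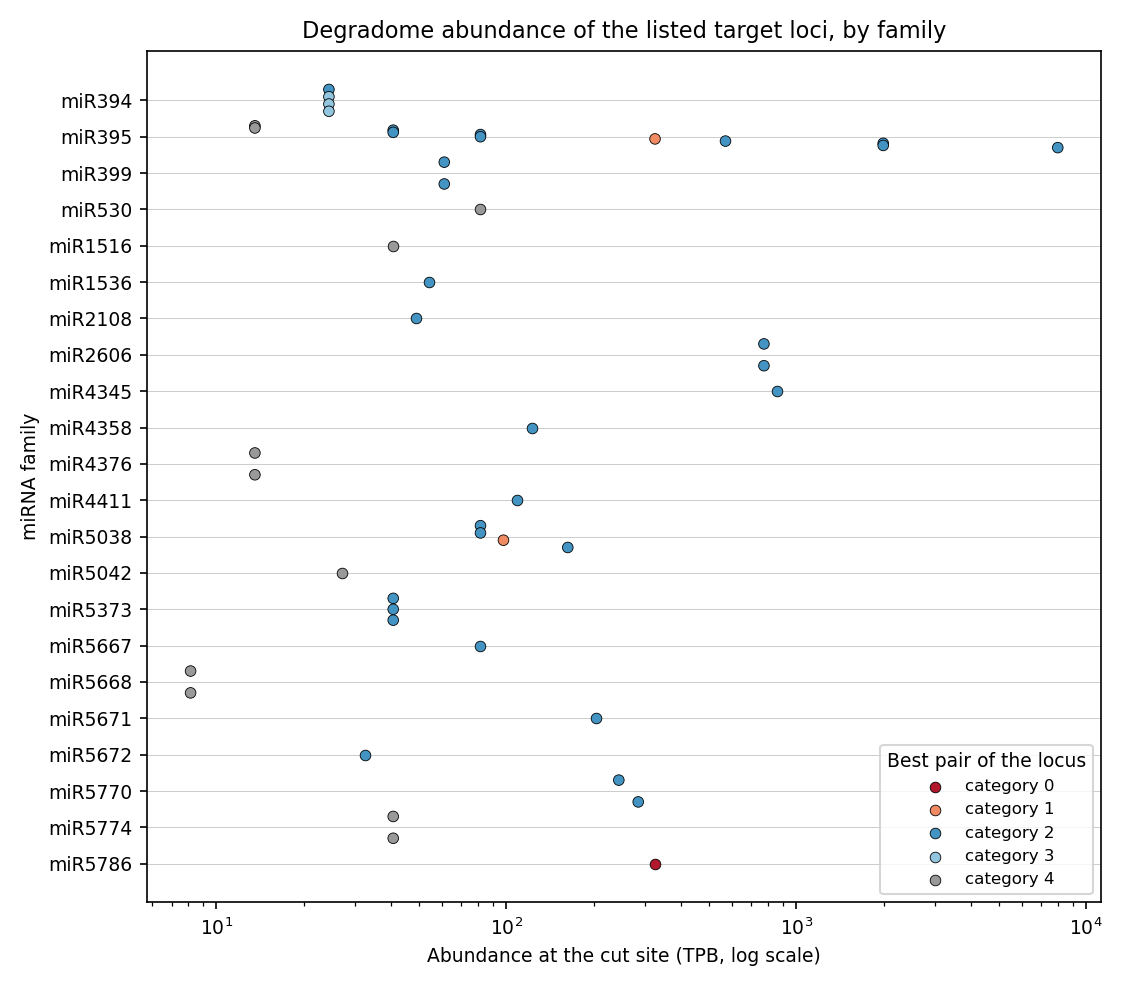
Abundance at the cut site (TPB, log axis) of the best pair of each of the 46 loci, by miRNA family; each point is a locus, colored by its degradome category, and points of a family are spread vertically so that equal values can be seen. The miR395 loci span 13.6 to 7978 TPB, and the single category 0 point is the miR5786 locus at 326 TPB.

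Among transporters and channels, the clearest single pair was that of miR5786 with Glyma.15G167500, annotated as the autoinhibited Ca2+-ATPase isoform 8. ACA8 is a calmodulin-regulated pump of the Arabidopsis plasma membrane that moves calcium out of the cell. Its cut position was 470 in the transcript Glyma.15G167500.1, with an alignment score of 3.5, 326 TPB, category 0 and the authors' p = 0.00560. It was the single locus of the 46 in category 0. The hairpin of miR5786 lies at chr19:1947621-1947760 on the plus strand of an unstated genome build. miR5786 itself was scarce and close in both libraries, with 17 reads in the chilled and 15 reads in the control library.

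The other transport loci had weak sites. miR2108a was paired with Glyma.16G057600, annotated as chloride channel B, a member of a family that carries anions across plant membranes, at 48.8 TPB in category 2 (the authors' p = 0.9996, score 4). miR2108a has no entry in the profile tables used here. miR5672 was paired with Glyma.02G038800, annotated as a transporter associated with antigen processing and thus of the ATP-binding cassette class, at 32.6 TPB in category 2 (the authors' p = 0.922).

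Protein folding genes were listed mainly for MIR5038a-p5. Its locus with the highest rank was Glyma.14G149300, which codes for a protein with tetratricopeptide repeats, a motif that binds other proteins, and whose further role is not annotated. This locus depended on the transcript chosen. Transcripts 2, 4 and 6 were in category 1 at 97.7 TPB with the authors' p = 0.0348, and the 5 other transcripts were in category 2 at 89.5 or 97.7 TPB with the authors' p = 0.971. The first transcript alone would have left the locus above 0.05. MIR5038a-p5 was also paired with a pair of FKBP-type isomerases, enzymes that help proteins fold, Glyma.08G333000 and Glyma.18G074000, both at 81.4 TPB and score 3 (the authors' p = 0.305), and with Glyma.19G180600, a homolog of P58IPK, a DnaJ co-chaperone, at 163 TPB (the authors' p = 0.878). MIR5038a-p5 had 11.5 reads in the chilled library and 16 reads in the control library.

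Sulfate and phosphate supply was represented by miR395 and miR399, each with a textbook target listed, at scores of 2 to 3 and of 0 to 1.5. In Arabidopsis miR395 acts on ATP sulfurylases, which start the assimilation of sulfate, and miR399 acts on PHO2, a ubiquitin-conjugating enzyme that limits phosphate uptake. The ATP sulfurylase 1 copies Glyma.10G242600 and Glyma.20G151500 each had 1995 TPB at position 540 and position 505. These cuts were listed for miR395d at a score of 2 (the authors' p = 0.737) and for miR395i at a score of 3 (the authors' p = 0.518), all in category 2. miR395d is the first 18 bases of miR395i, so its score at the same cut is taken over fewer bases. For miR395a the cuts stood 1 base further on, at 541 and 506, with 285 TPB, a score of 2.5 and the authors' p = 0.758. The abundance at the miR395d and miR395i position was thus 7.0 times that at the miR395a position in both copies. In sequence, miR395d and miR395i begin at base 2 of miR395a, so the registers of the miRNAs and of the cuts both differ by 1 base.

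PHO2 was listed at 2 sites per transcript. miR399a was placed at position 728 of Glyma.13G239100.1 and at 679 of Glyma.15G074200.1, with 61.1 TPB and a score of 1.5 (the authors' p = 0.622). miR399d was placed at 1027 and 993 in the same transcripts, with 102 TPB and a score of 0, the lowest of any pair described here (the authors' p = 0.703). The sites lay 299 bases apart in the first copy and 314 in the second. The 2 miRNAs have the same base at 19 of 21 positions. All 8 pairs were in category 2, which by its usual meaning is not the highest position on the transcript.

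The remaining miR395 loci paired at a score of 4, apart from the ketol-acid reductoisomerases. These plastid enzymes of branched-chain amino acid synthesis, Glyma.06G283200 and Glyma.12G122900, had 40.7 TPB and a score of 3 for miR395d (the authors' p = 0.999 in category 2) and of 4 for miR395i (the authors' p = 0.818). The transcript Glyma.12G122900.1 was in category 3 for both miRNAs, with the authors' p = 0.745 for miR395d and 0.291 for miR395i, so the category of this locus also depended on the transcript. The dynamin-like 3 gene Glyma.07G273100, of a family that pinches off membrane vesicles, was in category 1 at 326 TPB for miR395d (position 1987, the authors' p = 0.144). The highest abundance of all 46 loci, 7978 TPB, belonged to Glyma.05G216000, an unannotated gene listed for miR395d and chosen after its value was seen. It was in category 2 at position 266 with a score of 4 and the authors' p = 1.00. MIR395k-p5 was paired with a DnaJ-domain chaperone (Glyma.12G189400, 570 TPB) and with lipase-like hydrolase copies at 13.6 TPB. The other miR395d loci, a phospholipid:diacylglycerol acyltransferase (Glyma.07G036400) and a gibberellin-regulated gene (Glyma.17G092800), both had 81.4 TPB and the authors' p = 1.00.

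Among genes of protein turnover, miR394a-5p had the most uniform set of targets. In Arabidopsis miR394 acts on an F-box gene, LEAF CURLING RESPONSIVENESS, that shapes leaves and the shoot meristem, and F-box proteins choose substrates for ubiquitination. All 4 of its loci, Glyma.05G147900, Glyma.08G104800, Glyma.11G251600 and Glyma.18G005400, carry the annotation of the galactose oxidase and kelch repeat superfamily, and each of their 10 transcripts had a score of 1 and 24.4 TPB. The 10 values summed to 244 TPB, and their equality over all transcripts gave no order among the copies. Glyma.05G147900 was in category 2 (the authors' p = 0.928) and the other 3 in category 3 (the authors' p = 0.413). miR394a-5p was nearly absent from the profile, with 0 chilled reads and 0.833 control reads in each of 6 entries, which sum to 0 and 5 reads. MIR5774b-p5 was paired with a pair of TOXICOS EN LEVADURA 2 copies, RING-type ubiquitin ligases, Glyma.07G245400 and Glyma.17G028400, at 40.7 TPB in category 4 (the authors' p = 0.200). It had 7 reads in both libraries.

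Chloroplast proteins made up 8 loci of 6 families, each with a score of 3.5 or 4 for its best pair, in category 2 or 4. This group was formed from the annotations and symbols after they were seen. CLPC1 is a chaperone of the chloroplast stroma that feeds proteins to the Clp protease. Its copies Glyma.04G200400 and Glyma.06G165200 were listed for miR5770a at 244 and 285 TPB (score 4, category 2, the authors' p = 0.863). CLPP5, a proteolytic subunit of the same protease, was listed for MIR5667-p5 (Glyma.02G011800, 81.4 TPB, category 2, the authors' p = 0.910). The 2 families thus named parts of the same chloroplast machine, though none of these pairs had a p-value under 0.05. GUN4, which activates the first enzyme of the chlorophyll branch, was listed for MIR5671-p3 (Glyma.12G052500, 204 TPB, the authors' p = 0.758). The symbol NYC1, a chlorophyll b reductase, stood with Glyma.07G085700 for MIR4358-p5 (122 TPB, position 47, the authors' p = 0.385). Rubisco activase, which frees the active site of Rubisco, was listed for MIR1516a-p3 (Glyma.14G067000, 40.7 TPB, category 4, the authors' p = 0.200). The ketol-acid reductoisomerases given above complete the group.

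RNA-related loci followed. miR5373 had 3 DEAD/H-box RNA helicases, enzymes that unwind RNA, Glyma.07G010500, Glyma.07G105300 and Glyma.08G193700, each at 40.7 TPB and a score of 3.5 in category 2 (the authors' p = 0.912). MIR2606a-p5 had Glyma.17G200600 and Glyma.U011200, which have no annotation but carry a KOG description of a splicing coactivator, at 773 TPB each in category 2 (the authors' p = 0.385). Its own reads were 0 in the chilled library and 1 in the control library. The transcription factors were a pair of auxin response factor 2 genes, Glyma.05G200800 and Glyma.08G008100, regulators that bind auxin-responsive promoters, listed for miR4376a-3p. All 6 of their transcripts had 13.6 TPB, which sum to 81.4, in category 4 (the authors' p = 0.634).

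The genes grouped under cell wall and cell surface came from 3 families with 1 locus each. miR4411 was paired with Glyma.10G040700, an exostosin-type gene with the symbol MUR3, a xyloglucan galactosyltransferase in Arabidopsis, at 109 TPB in category 2 (the authors' p = 0.573). MIR530c-p3, MIR530d-p3 and MIR530e-p3, which are 1 sequence, were paired with arabinogalactan protein 3 (Glyma.08G281600), a cell surface glycoprotein, at a score of 2.5 and 81.4 TPB in category 4 (the authors' p = 0.130). MIR5042-p3 had a gene of the plant invertase or pectin methylesterase inhibitor superfamily (Glyma.17G044500, 27.1 TPB, category 4, the authors' p = 0.254). MIR4345-p3 had a remorin, a plasma membrane scaffold protein (Glyma.09G139200, 855 TPB, category 2, the authors' p = 0.992). MIR1536-p3 had protein tyrosine phosphatase 1, a signalling enzyme (Glyma.20G173900, 54.3 TPB, category 2, the authors' p = 0.995). Disease resistance genes, which detect pathogens, were limited to miR5668, with Glyma.16G214000 and Glyma.16G214100, numbered next to each other, at 8.14 TPB in category 4 (the authors' p = 0.833).

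The study's main question was which miRNAs differ after chilling, and the miRNAs of these pairs were mostly too scarce to answer it. Of the 25 sequences with an entry in the profile tables, 9 reached 10 normalised reads in at least 1 library and 4 reached 100. Together the sequences held 0.108% of the chilled and 0.107% of the control table's reads. Their median abundance, as the mean of both libraries, was 3.27 normalised reads, against 91.3 for the 61 sequences of other families with a target and an entry. A sequence was called where normalised reads in the chilled library, after adding 1, were at least 2-fold above or below those of the control library treated alike. The call compares those 2 libraries, and its 95% intervals cover counting error only.

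Of the 9 sequences 1 was higher, 1 lower and 7 neither in chilled leaves, beside 14.1% higher and 16.4% lower among the 213 sequences of the whole profile at that minimum. miR4411 was higher, with 46 chilled reads and 14 control reads, for a chilled over control log2 ratio of 1.41 (95% interval 0.58 to 2.45). MIR5667-p5 was lower, with 4 chilled reads and 12 control reads, at a log2 ratio of -1.59 (-3.92 to -0.11). Both kept their direction and call under each of the 5 scalings run, with ratios of 1.20 to 1.65 and of -1.78 to -1.38. miR4411 comes from a hairpin at chr1:12590844-12590899 on the plus strand and MIR5667-p5 from one at chr7:5379134-5379221 on the minus strand.

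**Figure D3:**
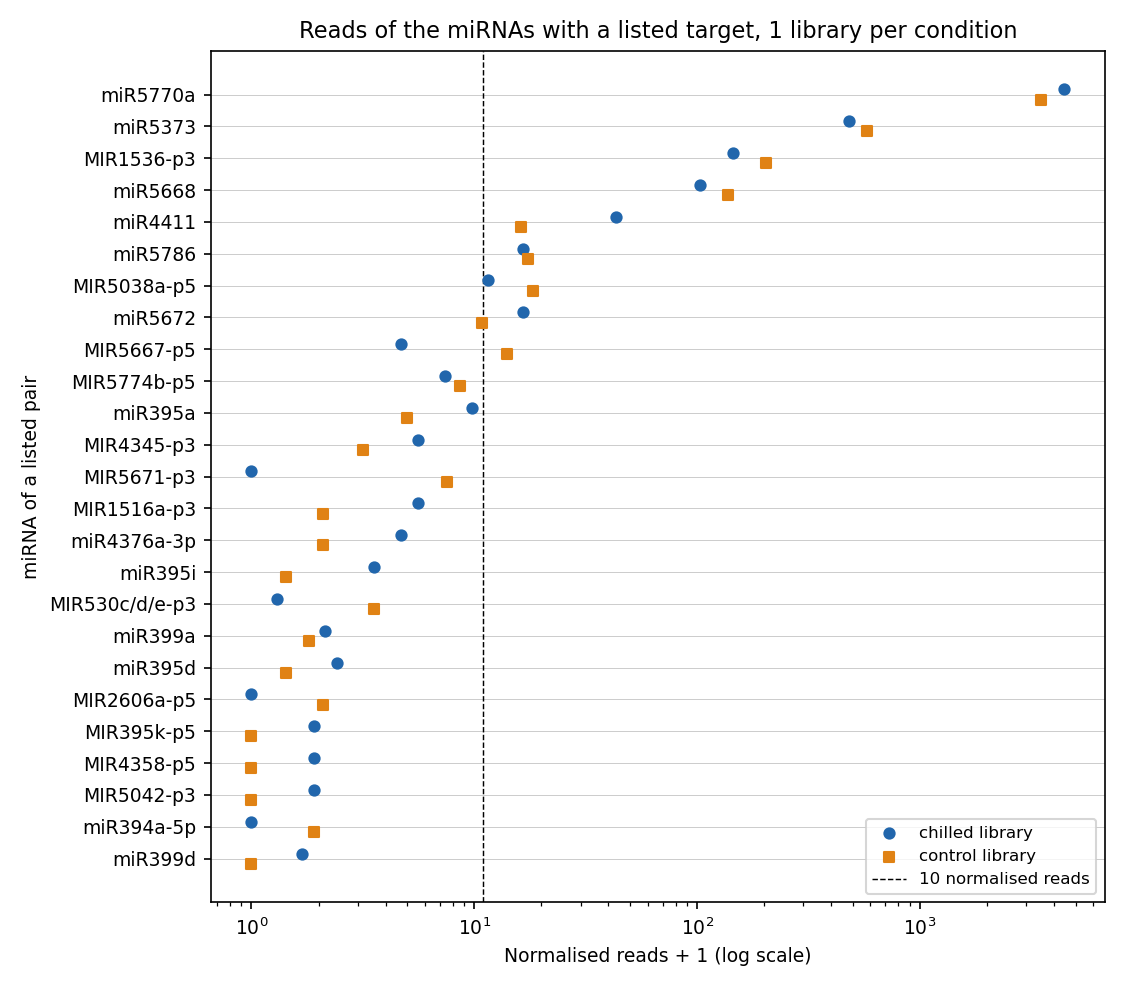
Normalised reads plus 1 (log axis) of each of the 25 sequences with a listed target and a profile entry, in the chilled (blue circles) and control (orange squares) libraries, ordered by abundance; the dashed line marks 10 normalised reads. Points to the right of the line belong to 9 sequences, and miR4411 and MIR5667-p5 are the ones among them at least 2-fold apart.

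The abundant sequences lay close in both libraries. miR5770a had 4831 chilled and 3195 control reads, which is 0.35 on that scale (0.29 to 0.42). miR5373 had 522 chilled and 533 control reads (-0.28, -0.45 to -0.10). MIR1536-p3 had 143 chilled and 203 control normalised reads (-0.50, -0.82 to -0.19), and miR5668 had 111 chilled and 125 control reads (-0.41, -0.80 to -0.04). For these 4 the interval at the scaling used left out equal levels and lay within 2-fold. miR5672 had 17 chilled and 9 control reads (0.62, -0.57 to 2.02), MIR5038a-p5 stood at -0.67 (-1.87 to 0.51) and miR5786 at -0.06 (-1.16 to 1.04), so that no difference was detectable at this depth. The sign of miR5786 changed between scalings.

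The paired sequences of the conserved families were scarce per entry. The entry of miR395d with the most reads held 1.54 chilled and 0.4 control reads, and its 5 entries summed to 5.21 and 0.4. Each entry of miR395a held 9.54 chilled and 3.67 control reads, that of miR395i 2.79 and 0.4 and that of miR399a 1.25 and 0.75. miR399d had 0.75 chilled and 0 control reads in each of 4 entries, where 3 reads would still be compatible with finding none. Over all their entries miR395a summed to 28.6 chilled and 11 control reads (1.06, 0.10 to 2.29), and miR395i to 11.2 and 1.6 reads (2.03, 0.01 to 5.42), which would make both higher. The tables do not say whether the reads of a sequence were divided over its entries; of 92 sequences listed at several loci with fractional reads, 50 sum to whole numbers in both libraries. The pairings of miR394a-5p, miR395 and miR399 with known targets, which include the closest of the set, thus belonged to miRNAs with fewer than 10 normalised reads per entry. Of these, miR395a and miR395i reached that minimum with their entries summed. The most abundant sequence, miR5770a, paired at a score of 4.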

How the data were processed

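Small RNA was measured in 1 chilled and 1 control leaf library and cut messenger ends in 1 degradome library of mixed leaves. The profile tables deposited by the authors hold raw reads per miRNA entry, with fractions, and were treated as estimated counts, rounded for scaling and intervals. The degradome table deposited by the authors holds TPB (a normalised signal), an alignment score, a category, a cut position and a p-value per pair. No aligner, no target caller, no genome build and no miRBase release is stated in the labels or tables; 6 emptied lines of the known miRNA table were not analysed here, and 1 miRNA sequence without a listed target is not reported here. The label of 10 days after pollination for the degradome was left as it stands.

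One pair was kept per family and locus, that with the lowest category, then the lowest authors' p, alignment score, highest TPB and first identifier. One entry was kept per mature sequence, that with the most reads, and libraries were scaled with edgeR 4.0.16 (TMM, R 4.3.3) over all 381 sequences, a log2 factor of 0.25 between chilled and control. The fold rule and interval were run on simulated data with counting error alone, which cannot show how calls hold across replicate leaves. Intervals are exact conditional binomial intervals at 95%. All loci in category 0 or 1, the first locus of each family and all sequences at 10 normalised reads or more are named. Members, target groups and lists were chosen with earlier results of these data known. No test was made between conditions or families, since each rests on 1 library. Alternatives were other scalings (DESeq2 1.42.0 size factors, table totals, unscaled reads), pseudocounts, minimums, summed entries, and other ways to keep a pair.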

Additional observations from a re-analysis of the deposited data

How the results depend on the processing

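No paired analysis was possible because each condition had 1 library. The 46 loci kept a median alignment score of 3.5 under the 5 alternatives run, and a median TPB between 44.8 and 81.4. The count of loci in category 0 or 1 was 3, and became 1 with category 0 alone. It was 2 with the first listed transcript of each locus, and 2 without miR394, miR395, miR399 and miR530. Counted over all 100 pairs instead of loci, 5 pairs were in category 0 or 1. The count of loci at an authors' p under 0.05 was 2, and became 1 at a p under 0.01. It also became 1 when the first listed transcript of each locus was used. This last alternative and one without miR394, miR395, miR399 and miR530 were chosen after seeing the data. Counted over pairs instead of loci, 4 pairs had an authors' p under 0.05. The counts of miRNAs higher and lower in chilled leaves, 1 and 1, did not move with the other 4 scalings or a pseudocount of 0.5. With no minimum they became 4 and 4, and with at least 100 normalised reads 0 and 0. With the entries of a sequence summed 3 were higher, miR4411, miR395a and miR395i. Shares over the whole profile are given for the main rule alone, so these other counts have no such share beside them. A limit on the alignment score of 4 left out no pair. Depth limits these counts: 16 of 25 sequences had fewer than 10 normalised reads.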

Other observations

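The hairpins of several of these families gave more reads from a sequence without a listed target than from the paired one. In 8 of the 21 families with a profile entry, the most abundant sequence of the family had no pair in the target table. For some of these families the order rests on few reads. miR2606a had 5.5 chilled and 6 control reads, and miR394b-3p had 7 and 5. MIR4358-p3 had 1 chilled and 4 control reads, and miR530a had 3.5 and 5. These sequences fell below the minimum of normalised reads used for the call. No such count was made for the other families of the target table. Ratios are given here for 4 of the 27 unpaired sequences of the families described, not for all. miR4345 had 1385 chilled and 732 control reads (log2 ratio 0.67, 95% interval 0.54 to 0.80), against 5 and 2 reads for the paired MIR4345-p3. miR5671 had 766 chilled and 743 control reads (-0.20, -0.35 to -0.05), against 0 and 6 for the paired MIR5671-p3. miR5667, the other arm of the hairpin that gave the lower MIR5667-p5, was itself lower, with 32 chilled and 66 control reads (-1.26, -1.95 to -0.66), under each scaling run. miR5038a, less abundant than the paired MIR5038a-p5, had 6.5 chilled and 13 control reads (-1.12, -3.04 to 0.13). Its ratio fell short of 2-fold with unscaled reads and with a table total without miR3522.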
